A study of Mus musculus with 8 samples.

Results

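The NRF2 antioxidant genes described here are 10 named mouse genes: Nfe2l2, which encodes NRF2 itself, its inhibitor Keap1, and the enzyme genes Gclc, Gclm, Gsr, Gsta4, Txnrd1, Srxn1, Prdx1 and Nqo1. They were chosen by name as textbook parts of this pathway, and all 10 were found among the 55417 gene names of the series. RNA was counted per gene in adherent cultures grown from whole marrow and bone of mice with acute myeloid leukaemia, labelled bone marrow stromal cells (BMSC). The mice were Id1-/- or Id1+/+ and were harvested 6 weeks after transplantation. Id1 encodes a dominant inhibitor of basic helix-loop-helix transcription factors. The groups were Id1-/- and Id1+/+ with leukaemia from the MLL-AF9 oncogene (KMT2A joined to MLLT3), and Id1-/- and Id1+/+ with leukaemia from AE9a (a short splice form of the RUNX1-RUNX1T1 fusion). All 4 groups therefore carried leukaemia, and no leukaemia-free stroma was analysed here. The labels call the Id1-/- mice knockouts without naming the allele, and give neither strain, age nor the number of animals behind a library. The design addresses what Id1 in the host tissue does for leukaemia-initiating cells.

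NRF2 is a transcription factor that KEAP1 binds and marks for destruction by the proteasome. When oxidants or electrophiles modify KEAP1, NRF2 accumulates, pairs with a small MAF protein and switches on genes with an antioxidant response element, which supply glutathione, thioredoxin and NADPH. Because most of this control acts on the protein, the RNA of Nfe2l2 need not follow NRF2 activity, and the target genes are the usual readout. In marrow, the pathway is known for restraining reactive oxygen in stem cells and macrophages.

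The upstream sequences of Srxn1 and Prdx1 are shown because they were the 2 matched genes with TGANTCAGC in this window, and because Prdx1 fell in MLL-AF9 and Srxn1 differed between the leukaemia models. Both come from RefSeq windows (GRCm38.p6) of 250 bases before to 50 bases after a gene's start, which matched 7 of the 10 genes. Each is printed 5′ to 3′ on the gene's strand, without the bases that belong to annotated transcripts. Capitals mark every match to TGANTCAGC, the site of NRF2 with small MAF proteins, to TGACNNNGC, the core of the antioxidant response element, or to TGANTCA, the AP-1 site. Both strands were searched, and the motifs can overlap. The Srxn1 stretch is chr2:152105274-152105515 on the plus strand and the Prdx1 stretch is chr4:116685349-116685543 on the plus strand.
Srxn1: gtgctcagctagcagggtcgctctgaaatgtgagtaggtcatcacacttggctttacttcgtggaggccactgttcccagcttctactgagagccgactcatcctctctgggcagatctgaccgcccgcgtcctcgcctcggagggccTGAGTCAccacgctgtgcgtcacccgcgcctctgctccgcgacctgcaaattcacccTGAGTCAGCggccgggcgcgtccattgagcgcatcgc
Prdx1: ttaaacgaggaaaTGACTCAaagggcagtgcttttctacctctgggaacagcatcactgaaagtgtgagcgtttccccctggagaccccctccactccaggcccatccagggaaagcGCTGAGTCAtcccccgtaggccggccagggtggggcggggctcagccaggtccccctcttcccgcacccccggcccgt
In Srxn1, TGAGTCAGC lay at positions -45 to -37, counted from the RefSeq start, with a further AP-1 match at -102 and, inside the transcript and so not printed, a TGACNNNGC match at 28. In Prdx1, TGACTCAGC lay on the opposite strand at -133 to -125, with a further AP-1 match at -237. The motif TGANTCAGC occurred in 1.19% of all 32851 windows, TGACNNNGC in 12.4% and TGANTCA in 7.81%. The windows of Nfe2l2 and Gclm, and 1 of the 3 windows of Txnrd1, held TGACNNNGC without TGANTCAGC. The windows of Keap1 and Nqo1 held none of the 3 motifs, nor did the other Txnrd1 windows. A match describes letters in this window and was not tested as a binding site.

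Depth was 17864812 to 22510346 counts over the 4 MLL-AF9 libraries, 18126803 in AE9a Id1-/- and 20967896 in AE9a Id1+/+. In the AE9a table the other deposited column of each genotype equals the one used plus a constant (17 counts for Id1-/-, 134 for Id1+/+) in nearly all genes with counts, so each genotype was counted as 1 sample. Id1 itself had 226 and 222 counts in MLL-AF9 Id1-/- and 706 and 632 counts in MLL-AF9 Id1+/+, a log2 fold change of -1.43 (SE 0.12, edgeR adjusted p = 4.23e-07). It had 83 counts in AE9a Id1-/- and 383 in AE9a Id1+/+. In the unused AE9a Id1+/+ column Id1 had 317, below the used one, and it was the single gene to depart from the constant among 17958 genes with 2 or more counts there. Reads of Id1 thus remained in the knockout libraries, at chr2:152736251-152737410, a gene with 1 exon. The cultures also held many macrophage transcripts: 12 macrophage markers made up 2.49% to 3.41% of counts in every library, against 0.0273% to 0.396% for 12 mesenchymal stromal markers. All 12 macrophage markers were detected in every library, and Lum was the only mesenchymal marker at 0, in AE9a Id1+/+. Markers of neutrophils, erythroid cells, endothelium and B lymphocytes each summed to at most 0.0310% of counts.

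Levels were compared between genes as CPM (TMM-scaled counts relative to the library size, TMM being a trimmed mean of M values) per kilobase of exon, on a scale shared by the 6 libraries. Prdx1, a peroxidase that reduces hydrogen peroxide, led with a mean of 790.7 CPM per kb and a range of 612 to 983 over the libraries. Srxn1, which repairs over-oxidised peroxiredoxins, followed at 95 CPM per kb (range 51.2 to 117). Prdx1 did not overlap with Srxn1. The means of the next 4 genes were 73.8 CPM per kb for Gsr, 71.9 for Nfe2l2, 59.8 for Txnrd1 and 40.7 for Gclm, and each of these overlapped with the gene ranked just above it. Gclc averaged 15.7 CPM per kb, below the whole range of Gclm. Keap1 averaged 12.7 CPM per kb and Nqo1 6.63, and Keap1 overlapped with both Gclc and Nqo1. Gsta4 was last at 0.767 CPM per kb (range 0.269 to 1.21), below the whole range of Nqo1.

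**Figure D1:**
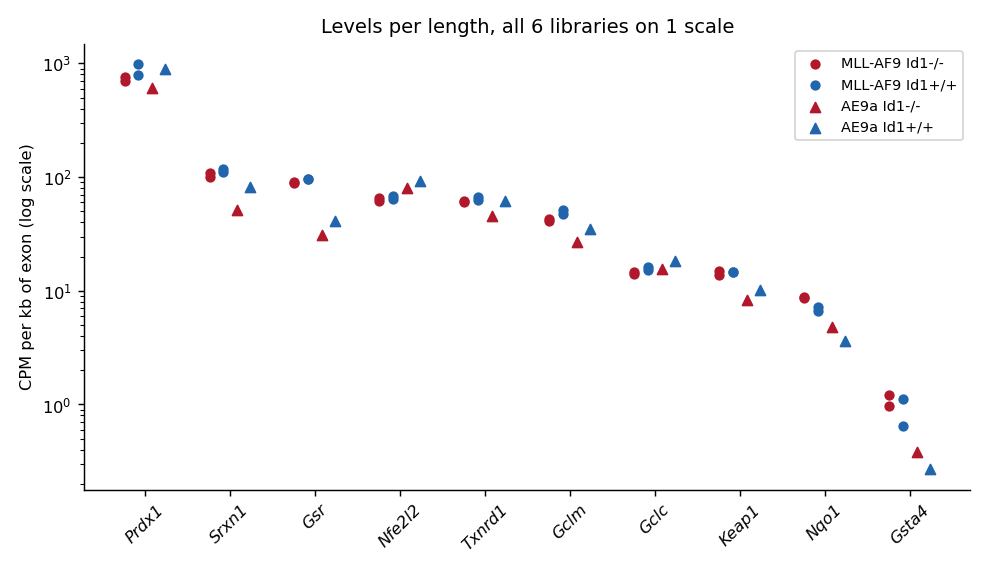
Level of each gene in CPM per kb of exon (log scale), all 6 libraries on 1 scale; circles are MLL-AF9, triangles AE9a, red Id1-/- and blue Id1+/+, each point 1 library. Prdx1 lies above every other gene and Gsta4 below, and the leukaemia models overlap for Gclc, Txnrd1 and Prdx1 but not for the other genes.

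In MLL-AF9 stroma the NRF2 genes were close to their Id1+/+ level. Of the 10 genes, Gclm and Prdx1 fell in Id1-/- libraries, none rose, and 8 did not pass the test (edgeR quasi-likelihood test, Benjamini-Hochberg adjusted over all genes, threshold 0.05, n = 2 libraries each). Among all 14137 genes tested, 27.8% were called, 17.2% higher and 10.6% lower, so the 2 calls among 10 genes are close to what all genes showed. The log2 fold changes (Id1-/- over Id1+/+) ran from -0.29 to 0.34 with a median of -0.10, against a median of 0.0029 over all genes tested. Of the 10 genes, 8 had a negative value on the TMM scaling used here and 4 with scaling by library totals, which shifts the median of all genes to 0.11. Those that turn positive with library totals are Nfe2l2, Keap1, Gsr and Txnrd1. The labels do not say that replicates came from separate animals, so p-values measure only the spread between these libraries, which may be technical.

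Neither Nfe2l2 nor Keap1 passed the test. Nfe2l2 (chr2:75675513-75704641, minus strand, 6 exon blocks) had 248 and 236 CPM in Id1-/- and 261 and 246 CPM in Id1+/+. The genotypes overlapped, and the log2 fold change was -0.065 (SE 0.078, 95% interval -0.23 to 0.10, edgeR adjusted p = 0.584). Keap1 (chr9:21229730-21239361, minus strand, 6 exon blocks), the adaptor that presents NRF2 to its ubiquitin ligase, had 70.9 and 65.3 CPM in Id1-/- and 68.1 and 68.4 CPM in Id1+/+. The Id1+/+ values fell between those of Id1-/-, with a log2 fold change of -0.0022 (95% interval -0.18 to 0.18, edgeR adjusted p = 0.988). An antisense gene, Gm16754, overlaps Keap1 over 510 bases and had at most 33 counts in a library. The strand setting of the counting is not given in the sources used here, so their reads may be shared.

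Among the glutathione genes, the modifier subunit of glutamate-cysteine ligase was lower in both Id1-/- libraries. Gclm (chr3:122245557-122270732, plus strand, 8 exon blocks) had 272 and 258 CPM in Id1-/- and 321 and 300.2 CPM in Id1+/+, without overlap. Its means were 265 ± 10.2 CPM in Id1-/- and 311 ± 14.7 CPM in Id1+/+ (SD, n = 2 each), a log2 fold change of -0.23 (SE 0.078, edgeR adjusted p = 0.0395). Its partner Gclc (chr9:77754535-77794485, plus strand, 18 exon blocks), the catalytic subunit that sets the rate of glutathione synthesis, had 52.8 and 54.9 CPM in Id1-/- and 58.0 and 61.1 CPM in Id1+/+. These values did not overlap either, yet the log2 fold change of -0.14 did not pass the test (SE 0.087, 95% interval -0.33 to 0.041, edgeR adjusted p = 0.237). Exons of Gclm overlap Gm17494 and the pseudogene Gm6061, and Gclm shares stretches of at least 100 bases at 95% identity with 17 other genes, so its count is uncertain in part.

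Glutathione reductase and the glutathione transferase of the set did not pass the test. Gsr (chr8:33652523-33698163, plus strand, 15 exon blocks), which regenerates glutathione with NADPH, had 244 and 251 CPM in Id1-/- and 267 and 264 CPM in Id1+/+. Both Id1-/- libraries were lower, by a log2 fold change of -0.10 (SE 0.076, 95% interval -0.26 to 0.058, edgeR adjusted p = 0.345). Gsta4 (chr9:78182774-78209349, plus strand, 8 exon blocks), which conjugates lipid aldehydes such as hydroxynonenal to glutathione, had only 30 and 23 counts in Id1-/- and 29 and 18 counts in Id1+/+. Its libraries overlapped, and the log2 fold change of 0.32 had an interval from -0.52 to 1.15 (edgeR adjusted p = 0.596). At this depth neither a fall nor a rise within that interval can be excluded.

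Of the thioredoxin and peroxiredoxin members, the peroxidase itself fell. Prdx1 (chr4:116685544-116700822, plus strand, 7 exon blocks) had 2319 and 2125 CPM in Id1-/- and 2994 and 2434 CPM in Id1+/+, without overlap. Its means were 2222 ± 137 CPM in Id1-/- and 2714 ± 396 CPM in Id1+/+ (SD, n = 2 each), a log2 fold change of -0.29 (SE 0.095, edgeR adjusted p = 0.0331). The Id1+/+ libraries lay farther from each other than the lower one lay from Id1-/-. Srxn1 (chr2:152105516-152111376, plus strand, 2 exon blocks) had 284 and 309.5 CPM in Id1-/- and 330.1 and 316 CPM in Id1+/+, a log2 fold change of -0.12 (SE 0.079, 95% interval -0.29 to 0.044, edgeR adjusted p = 0.265). Txnrd1 (chr10:82833951-82897712, plus strand, 15 exon blocks), which reduces thioredoxin with NADPH, had 426 and 441 CPM in Id1-/- and 446 and 477 CPM in Id1+/+. For both genes the genotypes did not overlap, but the difference was small, with a log2 fold change of -0.089 for Txnrd1 (95% interval -0.25 to 0.075, edgeR adjusted p = 0.426). Prdx1 shares stretches of up to 597 bases with 3 other genes, of which the copy Gm21399 had 309 to 638 counts in a library, against 34807 to 61086 counts for Prdx1.

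Nqo1 (chr8:107388225-107403206, minus strand, 6 exon blocks), the quinone reductase often used as a readout of NRF2, had a positive log2 fold change on both scalings. It had 13.6 and 13.8 CPM in Id1-/- and 11.2 and 10.4 CPM in Id1+/+, so both Id1-/- libraries lay above both Id1+/+ libraries. The means were 13.7 ± 0.101 CPM in Id1-/- and 10.8 ± 0.543 CPM in Id1+/+ (SD, n = 2 each). The log2 fold change of 0.34 (SE 0.13, 95% interval 0.057 to 0.63) did not pass the test (edgeR adjusted p = 0.0698), but passed with library totals (0.45, edgeR adjusted p = 0.0222).

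The calls of Gclm and Prdx1 depended on the libraries. Both were lost without Id1-/- replicate 1, without Id1-/- replicate 2 and without Id1+/+ replicate 1. Gclm then had log2 fold changes of -0.27, -0.19 and -0.19, with edgeR adjusted p of 0.111, 0.247 and 0.164 in that order. Prdx1 had -0.36, -0.23 and -0.14, with edgeR adjusted p of 0.0731, 0.237 and 0.328. Without Id1+/+ replicate 2 the Prdx1 value was -0.44 and both calls held (edgeR adjusted p = 0.00133 for Prdx1). With library totals Gclm had -0.12 and Prdx1 -0.17, and neither passed (edgeR adjusted p = 0.272 and 0.168). Of the 10 genes, 7 had genotype ranges that did not overlap, 6 of them lower and Nqo1 higher. Among all genes tested, 65% had such ranges, and 31.5% had them with Id1-/- lower.

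**Figure D2:**
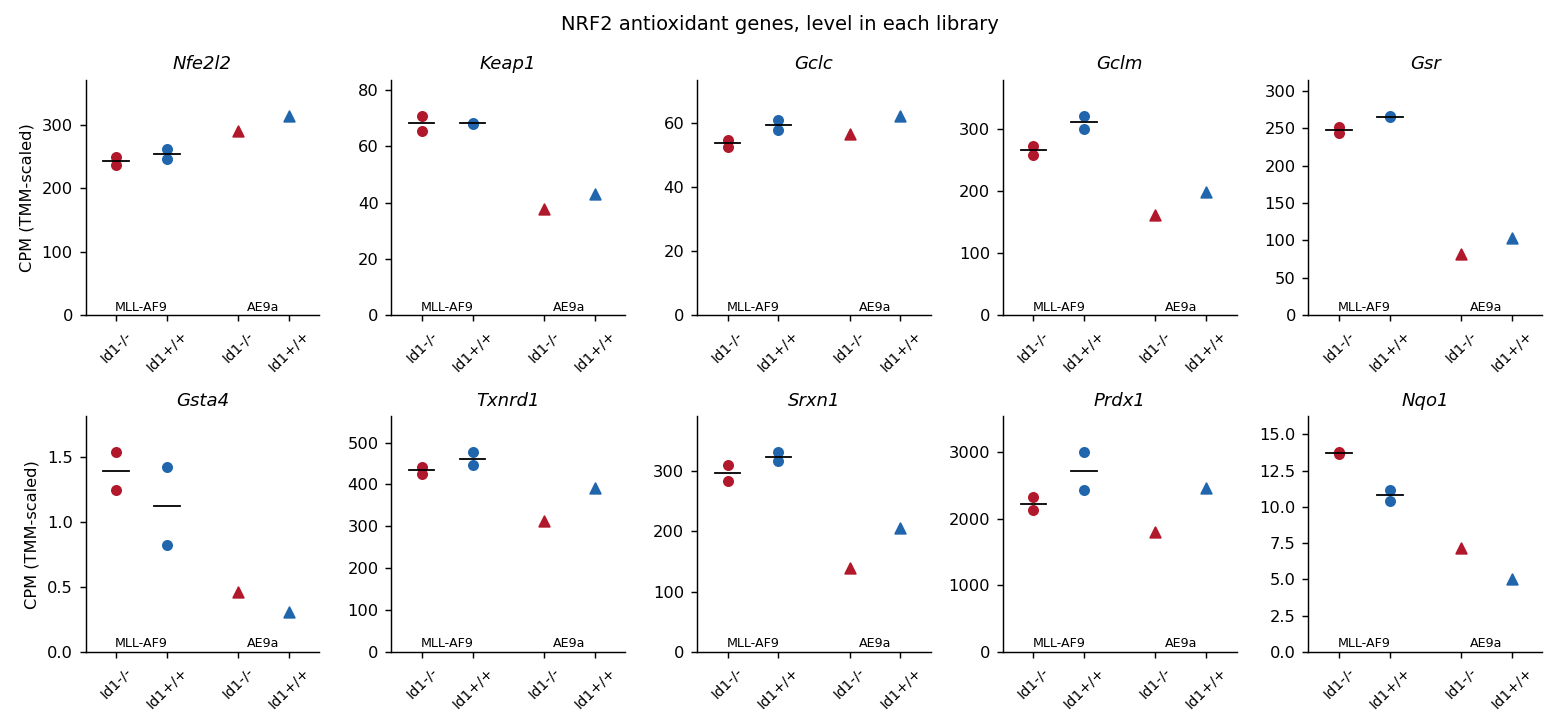
Level of each gene in TMM-scaled CPM in every library; the AE9a libraries are scaled apart from the MLL-AF9 ones, red is Id1-/-, blue Id1+/+, and bars are means of 2 MLL-AF9 libraries. Points of Nfe2l2, Keap1 and Gsta4 overlap between the MLL-AF9 genotypes, those of Prdx1 and Gclm lie lower in Id1-/-, and those of Nqo1 lie higher.

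In AE9a stroma, with 1 library per genotype, there is no test, and each ratio has a 95% exact binomial interval that covers counting error only. No gene of the set differed 2-fold, where 13.1% of 12730 genes at 1 CPM or more did (11.6% higher and 1.52% lower). The 9 genes at 1 CPM or more had a median log2 ratio of -0.29 (Id1-/- over Id1+/+), against -0.0084 over all genes. With library totals these medians were -0.092 and 0.19. The intervals of 8 genes lay wholly below 0, as did those of 31.7% of all genes, and that of Nqo1 wholly above 0, as in 31% of all genes. With library totals 5 intervals lay below 0, and those of Nfe2l2 and Nqo1 above. The share of all genes is not given on that scaling, so these counts have no background to set them against.

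Srxn1 had the lowest AE9a ratio of the 10, with 139 CPM in Id1-/- and 206 CPM in Id1+/+, a log2 ratio of -0.56 (interval -0.63 to -0.49). Prdx1 had 1794 CPM in Id1-/- and 2464 CPM in Id1+/+, a log2 ratio of -0.46 (interval -0.48 to -0.44). Gsr had 81.2 CPM in Id1-/- and 103 CPM in Id1+/+, a log2 ratio of -0.34 (interval -0.44 to -0.24). These 3 enzymes, with Txnrd1 and Gclm, kept negative intervals with library totals. Txnrd1 had 313 CPM in Id1-/- and 392 CPM in Id1+/+, a log2 ratio of -0.32 (interval -0.37 to -0.27). Gclm had 162 CPM in Id1-/- and 198 CPM in Id1+/+, a log2 ratio of -0.29 (interval -0.36 to -0.22). Gclc, the other subunit of glutamate-cysteine ligase, had 56.6 CPM in Id1-/- and 62.4 CPM in Id1+/+. Its log2 ratio was -0.14 (interval -0.26 to -0.023), and 0.056 with library totals. The intervals of the subunits overlapped, and their ratios were not tested against each other.

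Nfe2l2 and Keap1 had small ratios in AE9a. Nfe2l2 had 290.1 CPM in Id1-/- and 314 CPM in Id1+/+, a log2 ratio of -0.12 (interval -0.17 to -0.063) that was 0.083 with library totals. Keap1 had 37.6 CPM in Id1-/- and 42.9 CPM in Id1+/+, a log2 ratio of -0.19 (interval -0.34 to -0.045) that was 0.0078 with library totals. Their sign therefore rests on the scaling. Nqo1 had 7.16 CPM in Id1-/- and 5.06 CPM in Id1+/+, from 139 and 99 counts, a log2 ratio of 0.49 (interval 0.12 to 0.89). On the TMM scaling it was the single one of the 9 genes with a positive value. Gsta4 had 9 counts in Id1-/- and 6 in Id1+/+, too few to compare.

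**Figure D3:**
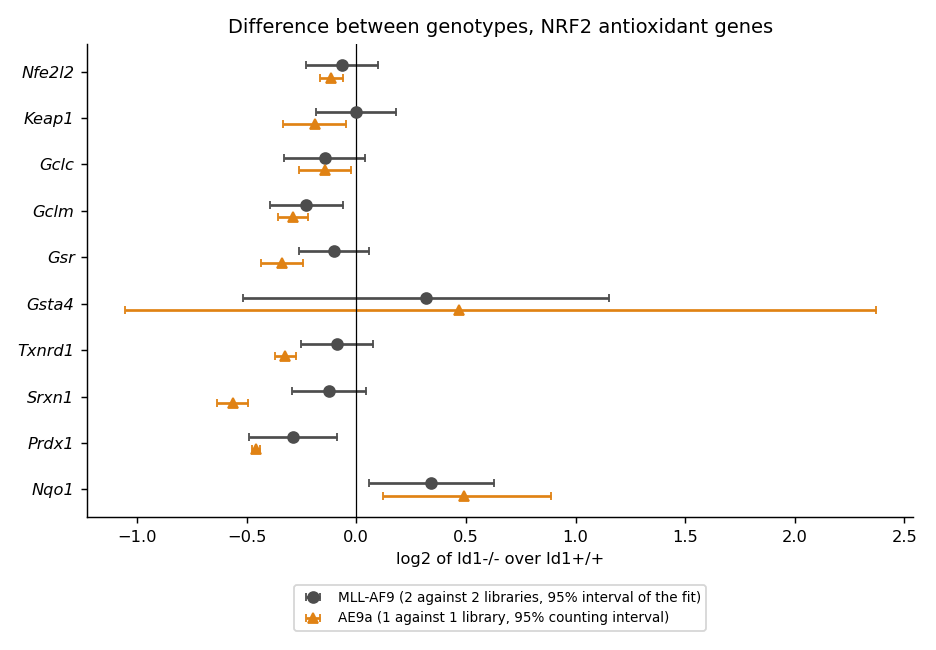
Log2 of Id1-/- over Id1+/+ for each gene (x axis), grey circles for MLL-AF9 with the 95% interval of the fit over 2 against 2 libraries and orange triangles for AE9a with a 95% counting interval of 1 against 1 library. Most genes sit between -0.56 and 0, Nqo1 lies to the right of 0 in both, and the Srxn1 values are the farthest apart for their intervals.

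Whether the genotype difference itself differed between the leukaemia models was tested in a joint fit of the 6 libraries, in which a single AE9a library is taken to vary as much as a replicated MLL-AF9 one. Srxn1 was the single gene called of the 10, where 10.3% of 15086 genes were called. Its log2 ratio was -0.56 in AE9a and its log2 fold change -0.12 in MLL-AF9, with each model scaled on its own. The joint fit scales the 6 libraries together, and there Srxn1 had 145 CPM in AE9a Id1-/- and 228 CPM in AE9a Id1+/+. On this shared scale the fitted difference (AE9a minus MLL-AF9) was -0.53 (SE 0.14, edgeR adjusted p = 0.0271). It is thus larger in size than the gap between the separately scaled values. The call was lost without Id1+/+ replicate 2 (-0.45, edgeR adjusted p = 0.0509), without Id1-/- replicate 2 (-0.46, edgeR adjusted p = 0.128) and with library totals (-0.33, edgeR adjusted p = 0.153). The fitted difference was -0.33 for Gsr and -0.32 for Txnrd1, and neither passed (edgeR adjusted p = 0.15 each). The other 7 genes had fitted differences from -0.28 to 0.18 with adjusted p of 0.295 or more. The median difference of the 10 genes was -0.21, against -0.085 over all genes tested, and with library totals the medians were -0.0038 and 0.12.

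The levels themselves also differed between the models on the shared scale, as a description, since the leukaemia model and the table a library came from cannot be told apart. Gsr stood out, with 242 and 249 CPM in MLL-AF9 Id1-/- and 84.4 CPM in AE9a Id1-/-, and with 266 and 264 CPM in MLL-AF9 Id1+/+ and 114 CPM in AE9a Id1+/+. This is 2.91-fold higher in MLL-AF9 among Id1-/- libraries and 2.32-fold among Id1+/+ libraries. Keap1, Gclm, Gsta4, Srxn1 and Nqo1 were also higher in all 4 MLL-AF9 libraries than in both AE9a libraries. Among Id1+/+ libraries this was by 1.41-fold (Gclm, Srxn1) to 3.29-fold (Gsta4). Gsta4 had only 9 counts in AE9a Id1-/- and 6 in AE9a Id1+/+, so its ratio is uncertain. Nfe2l2 was lower in every MLL-AF9 library, at 0.799 times AE9a among Id1-/- and 0.725 times among Id1+/+ libraries. Gclc, Txnrd1 and Prdx1 overlapped. Of the 10 genes, 7 had models that did not overlap, where 51% of all genes did not (26.5% higher in MLL-AF9, 24.5% higher in AE9a).

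Around the 10 genes, 89 other genes of oxidant defence were read in 9 lists drawn up by textbook role, of which 85 were tested in MLL-AF9. Of these, 12 rose and 26 fell in Id1-/- libraries, with a median log2 fold change of -0.12, where 17.2% of all genes rose and 10.6% fell. With library totals 20 of the 85 rose and 11 fell, where 3138 of all 14137 genes rose and 598 fell. Which direction was more frequent among the 85 thus rests on the scaling. On both scalings the 85 held a larger share of falls than all genes did, a difference that was not tested. Leaving out Id1-/- replicate 1, Id1-/- replicate 2 or Id1+/+ replicate 1 reduced the genes that fell to 10, 10 and 12 in that order, and without Id1-/- replicate 1 the genes that rose were 7. Of the genes named here, Rbx1, Sqstm1, Mgst3, Glrx, Glrx2, Txn1, Nqo2, Akr1b8, Tkt, Taldo1, Blvra, Ncf1 and Cyba were no longer called with library totals, with log2 fold changes of -0.28 to -0.11. DESeq2 did not call Maff, Gstt1, Mgst3, Glrx2 or Nqo2 (adjusted p of 0.0587 to 0.117). The sum of the mesenchymal stromal markers moved with genotype, at 0.368% and 0.396% of counts in MLL-AF9 Id1-/- against 0.0741% and 0.0832% in MLL-AF9 Id1+/+, and 0.123% in AE9a Id1-/- against 0.0273% in AE9a Id1+/+. In MLL-AF9, 9 of these 12 markers rose and 1 fell. The macrophage markers summed to 2.57% and 2.49% in MLL-AF9 Id1-/- against 2.89% and 2.67% in MLL-AF9 Id1+/+, with 7 of 12 lower and 2 higher, and to 2.98% in AE9a Id1-/- against 3.41% in AE9a Id1+/+. In these mixed cultures fewer cells of a type and less RNA per cell cannot be told apart, and the part of either marker list in the results was not tested.

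**Figure D4:**
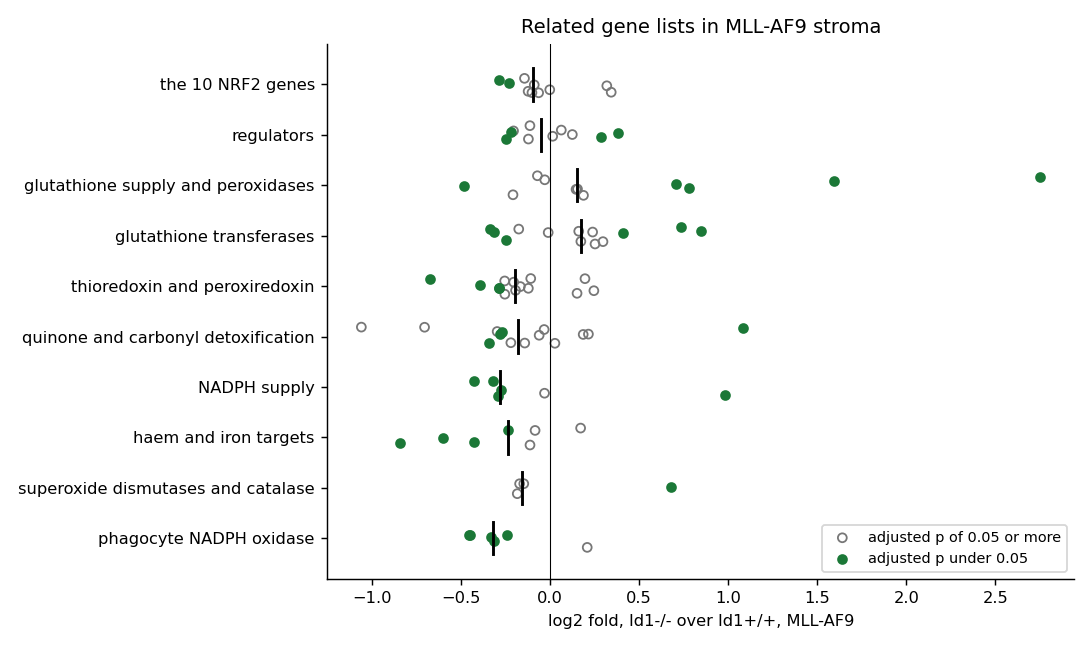
Log2 fold change (Id1-/- over Id1+/+) in MLL-AF9 of every tested gene of the 10 NRF2 genes and of 9 related lists; each circle is 1 gene, filled where the adjusted p is under 0.05, and bars are medians. Genes of NADPH supply, haem and iron, and the phagocyte oxidase sit mostly left of 0, and single glutathione genes lie far to the right.

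Of 10 regulators tested, 2 rose, 2 fell and 6 did not pass. Maff, a small MAF partner of NRF2, rose to 22.4 ± 0.371 CPM in Id1-/-, against 17.2 ± 0.573 CPM in Id1+/+ (log2 fold change 0.38), and had a log2 ratio of 0.97 in AE9a. Nfe2l1, the NRF1 gene of the same family, rose by 0.29 in MLL-AF9, with -0.27 in AE9a. Rbx1, the RING subunit of the KEAP1 ubiquitin ligase, fell by 0.25 on the log2 scale. Sqstm1, the autophagy receptor p62 that can sequester KEAP1, fell by 0.22, with -0.50 in AE9a. These 4 calls were lost without Id1-/- replicate 1, without Id1-/- replicate 2 or without Id1+/+ replicate 1, when the log2 fold change was 0.34 to 0.39 for Maff, 0.24 to 0.32 for Nfe2l1, -0.26 to -0.21 for Rbx1 and -0.25 to -0.17 for Sqstm1. Bach1, a repressor at antioxidant response elements that was picked for mention after its values were seen, did not pass in MLL-AF9 (0.12, edgeR adjusted p = 0.28) but passed with library totals (0.24, edgeR adjusted p = 0.0456), and had -0.40 in AE9a, or -0.20 with library totals.

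Of 11 genes of glutathione supply and peroxidases, 4 rose, 1 fell and 6 did not pass. Chac1 showed the largest change of the 85 genes, at 7.03 ± 0.393 CPM in Id1-/- and 1.03 ± 0.349 CPM in Id1+/+ (log2 fold change 2.75, edgeR adjusted p = 1.28e-06), with 0.84 in AE9a. Chac1 counts were low, at 132 and 135 in MLL-AF9 Id1-/- against 16 and 28 in MLL-AF9 Id1+/+. In AE9a they were 67 in Id1-/- and 37 in Id1+/+, so the size of either difference is uncertain. Chac1 encodes an enzyme that degrades glutathione and is known as a target of the stress factor ATF4. Gpx7 and Gpx8, peroxidases of the endoplasmic reticulum, rose by 1.59 and 0.78, and had 1.62 and 2.37 in AE9a. Ggt5, which cleaves leukotriene C4 and glutathione conjugates outside the cell, rose by 0.70, a call lost without Id1+/+ replicate 1 (0.58) or Id1-/- replicate 1 (0.63). The gene that fell was Gpx1, the main cytosolic glutathione peroxidase, named after its values were seen, at -0.49 (edgeR adjusted p = 0.000701), with -0.46 in AE9a. Slc7a11, the cystine carrier and a known NRF2 target, also named after its values were seen, had 0.19 in MLL-AF9 (edgeR adjusted p = 0.253) and -0.74 in AE9a.

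Of 13 glutathione transferases, 3 rose, 3 fell and 7 did not pass. Gstt1 rose by 0.85, with 1.46 in AE9a. Gstm2 rose by 0.73, with 21.7 ± 2.8 CPM in Id1-/- and 13.03 ± 0.48 CPM in Id1+/+, but had -0.66 in AE9a. Gstp1, the abundant pi-class enzyme, rose by 0.41, with -0.15 in AE9a (interval -0.30 to -0.0028). Library totals moved the median log2 ratio of all AE9a genes from -0.0084 to 0.19, so the sign of the Gstp1 ratio may rest on the scaling. Mgst3, a membrane-bound member, fell by 0.34, with -0.31 in AE9a. Without Id1+/+ replicate 2 the calls of Gstt1 (0.56) and Gstp1 (0.26) were lost, and without Id1-/- replicate 1 those of Gstt1 (0.93), Gstp1 (0.38) and Mgst3 (-0.39). Gstt1 (0.76) and Mgst3 (-0.30) were also lost without Id1-/- replicate 2, and Mgst3 (-0.19) without Id1+/+ replicate 1.

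Of 14 further thioredoxin and peroxiredoxin genes, none rose, 4 fell and 10 did not pass. Txnip, which binds and inhibits thioredoxin, fell to 133 ± 4.0 CPM in Id1-/-, against 211 ± 2.19 CPM in Id1+/+ (log2 fold change -0.67, edgeR adjusted p = 8.6e-06), but had 0.21 in AE9a. Thioredoxin itself, Txn1, fell by 0.29, with -0.52 in AE9a. The glutaredoxins Glrx and Glrx2 fell by 0.39 and 0.29, with 0.53 and -0.013 in AE9a. The list thus held both a thioredoxin and its inhibitor among the genes that fell. The call of Glrx2 was lost without any 1 of the 4 libraries (-0.31 to -0.28). That of Txn1 (-0.30 to -0.23) was lost without either Id1-/- library or Id1+/+ replicate 1, and that of Glrx without Id1+/+ replicate 1 (-0.23) or Id1-/- replicate 2 (-0.36).

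Of 14 genes of quinone and carbonyl detoxification other than Nqo1, 1 rose, 3 fell and 10 did not pass. Ephx1, the microsomal epoxide hydrolase, rose to 62.3 ± 3.46 CPM in Id1-/-, against 29.4 ± 0.124 CPM in Id1+/+ (log2 fold change 1.08, edgeR adjusted p = 3.28e-07), with 1.12 in AE9a. Ptgr1, a prostaglandin and alkenal reductase, fell by 0.35, with -0.56 in AE9a. Nqo2, the relative of Nqo1, fell by 0.28 and Akr1b8, an aldo-keto reductase, by 0.27, opposite in sign to Nqo1. The call of Ptgr1 was lost without Id1-/- replicate 1 (-0.29), and those of Nqo2 (-0.29 to -0.25) and Akr1b8 (-0.33 to -0.20) without either Id1-/- library or Id1+/+ replicate 1.

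Of 6 genes of NADPH supply, 1 rose, 4 fell and 1 did not pass, and of 7 haem and iron genes 4 fell and 3 did not pass. G6pdx, the entry enzyme of the pentose phosphate pathway, fell to 350.3 ± 8.95 CPM in Id1-/-, against 471 ± 2.6 CPM in Id1+/+ (log2 fold change -0.43, edgeR adjusted p = 0.00057), with -0.25 in AE9a. Pgd, Tkt and Taldo1 of the same pathway fell by 0.32, 0.29 and 0.27, with -0.47, -0.25 and -0.51 in AE9a, where Taldo1 was added to the named genes after its values were seen. Malic enzyme, Me1, rose by 0.98, with 1.73 in AE9a. Hmox1, which breaks down haem and is repressed by BACH1, fell to 731 ± 16.8 CPM in Id1-/-, against 1309 ± 147 CPM in Id1+/+ (log2 fold change -0.84, edgeR adjusted p = 2.64e-06), with -0.35 in AE9a. The ferritin chains Ftl1 and Fth1 fell by 0.60 and 0.43, with -0.52 and -0.70 in AE9a. Blvra, a biliverdin reductase, fell by 0.24, with -0.35 in AE9a. The calls of Blvra, Tkt and Taldo1 were lost without either Id1-/- library or Id1+/+ replicate 1 (-0.28 to -0.18, -0.31 to -0.24 and -0.30 to -0.20), and that of Pgd without Id1-/- replicate 1 (-0.34) or Id1-/- replicate 2 (-0.31). With library totals Pgd had -0.21 and was called. G6pdx, Me1, Hmox1, Ftl1 and Fth1 were called in all 10 alternatives tried.

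Of the superoxide dismutases and catalase, 1 of 4 passed. Cat and Sod1, the most abundant of them, had log2 fold changes of -0.17 and -0.15 (edgeR adjusted p = 0.111 and 0.185). The gene that passed was Sod3, the extracellular superoxide dismutase, named after its values were seen, at 37.7 ± 0.616 CPM in Id1-/- and 23.5 ± 0.219 CPM in Id1+/+ (log2 fold change 0.68, edgeR adjusted p = 8.78e-05), with 2.68 in AE9a. Across all 85 related genes, 19 had a genotype difference that differed between the models in the joint fit, 7 higher and 12 lower in AE9a than in MLL-AF9, where 10.3% of all genes were called, and with library totals 11 were higher and 3 lower. Leaving out either Id1-/- library or Id1+/+ replicate 1 left 4 higher, and leaving out Id1-/- replicate 2 left 6 lower.

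**Figure D5:**
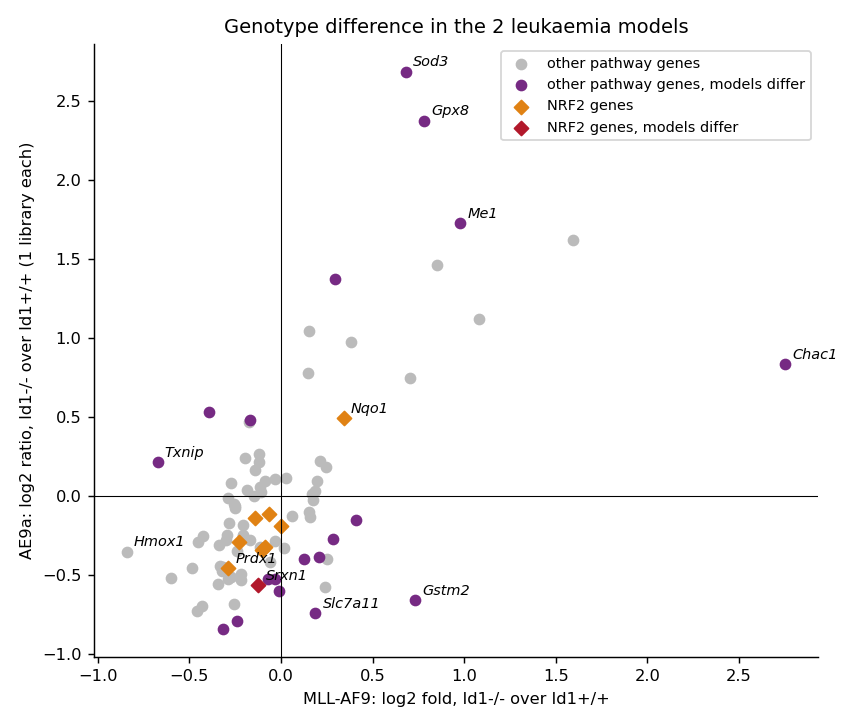
Log2 fold change (Id1-/- over Id1+/+) in MLL-AF9 on the x axis and log2 ratio in AE9a, from 1 library each, on the y axis, for the NRF2 genes (diamonds) and the other pathway genes (circles); red and purple mark a difference between models at an adjusted p under 0.05. Of the 9 NRF2 genes plotted (Gsta4, under 1 CPM in AE9a, is not shown), 8 lie left of and below 0 on the TMM scaling, with Keap1 close to 0 on the x axis, Nqo1 lies right of and above 0, and Sod3, Gpx8, Me1, Chac1 and Gstm2 lie far from them.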

How the data were processed

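The authors deposited whole-number counts per gene name, in a table per leukaemia model, without normalization. Per the labels, TRIzol RNA went into TruSeq RNA libraries that were read on a NovaSeq. Tools named in the submitters' processing notes, with no role or order, are DESeq2 1.32.0, featureCounts 2.0.1, HISAT2 2.2.1 and fastp 0.22.0, with the build mm10. The strand setting and annotation are not given in the sources used here. The unused AE9a columns hold deposited values that are a count plus a constant, treated as a score and used in 1 alternative. MLL-AF9 replicates differed like separate libraries (median chi-square over genes of 1.707 in Id1-/- and 2.187 in Id1+/+, where sampling noise alone gives 0.455). No column was left without a sample.

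For MLL-AF9 the quasi-likelihood test of edgeR 4.0.16 (R 4.3.3, two-sided, Benjamini-Hochberg over all genes) was run on counts after filterByExpr and TMM (trimmed mean of M values) scaling. AE9a log2 ratios used TMM and a prior count of 2, for genes with at least 10 summed counts, and were counted at a mean of 1 CPM or more. The joint fit used 6 libraries by model and genotype. DESeq2 1.42.0 and limma 3.58.1 served as alternatives, and the fits were tested on simulated data. The labels name no molecular identifiers, so reads are not independent molecules and intervals cover counting error only. Coordinates are GENCODE M21 (GRCm38, the same assembly as mm10), and promoter windows are RefSeq GRCm38.p6.

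The genes and lists were chosen with earlier results of these data known. The text names all 10 NRF2 genes, Id1 and, per pathway list, up to 4 called genes with the largest absolute log2 fold change in MLL-AF9, or the 2 with the highest mean CPM where fewer than 2 were called. Slc7a11, Bach1, Sod3, Gpx1, Taldo1, Cyba and Cybb were added after their values were seen, and 1 gene that the rule names is not reported here.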

Additional observations from a re-analysis of the deposited data

Results flagged for a closer look

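Srxn1 was the single NRF2 gene whose genotype difference differed between the leukaemia models in the joint edgeR fit, by -0.53 on the log2 scale (AE9a minus MLL-AF9, edgeR adjusted p = 0.0271), where 10.3% of all genes were called. The same fit called 19 of the 85 related genes, each given here as AE9a minus MLL-AF9. Of these, Slc3a2 (-0.54), Gstm1 (-0.62), Mgst1 (-0.68), Aldh2 (-0.58), Gstm5 (1.01) and Prdx3 (0.56) are not followed further here. The other genes called are listed next. Among regulators, Nfe2l1 differed by -0.65 (edgeR adjusted p = 0.00879) and Bach1 by -0.62 (0.0127). Among glutathione genes, Chac1 differed by -1.98 (edgeR adjusted p = 0.0149), Gpx8 by 1.53 (0.00168) and Slc7a11 by -1.02 (0.00194). Among the transferases, Gstm2 differed by -1.48 (edgeR adjusted p = 0.000279) and Gstp1 by -0.65 (0.0304). In the thioredoxin list, Txnip differed by 0.80 (edgeR adjusted p = 0.00221) and Glrx by 0.84 (0.0115). Me1, of NADPH supply, differed by 0.67 (edgeR adjusted p = 0.046) and Sod3 by 1.97 (0.000163). Of the phagocyte oxidase, Cybb differed by -0.68 (edgeR adjusted p = 0.00767) and Cyba by -0.64 (0.00927). With library totals the calls of Srxn1 (-0.33), Nfe2l1 (-0.44), Bach1 (-0.41), Gstp1 (-0.45), Cyba (-0.44) and Cybb (-0.48) were lost. Of these genes, a call was also lost without Id1-/- replicate 2 for Srxn1 (-0.46), Bach1 (-0.57), Gstp1 (-0.67), Me1 (0.65) and Cyba (-0.57). Without Id1-/- replicate 1 those of Gstp1 (-0.62) and Me1 (0.69) were lost. Without Id1+/+ replicate 2 those of Srxn1 (-0.45) and Gstp1 (-0.47) were lost, and without Id1+/+ replicate 1 that of Me1 (0.63). DESeq2 did not call Gstp1 (-0.62) or Me1 (0.70), and without the filter on low counts Me1 (0.67) was lost, so that each of these 2 calls was lost in 5 of 8 alternatives. The AE9a side rests on 1 library per genotype, and the mesenchymal stromal marker sum differed in both models (0.123% in AE9a Id1-/- against 0.0273% in AE9a Id1+/+), a part that was not tested.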

How the results depend on the processing

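Of 100 recomputed MLL-AF9 values of the 10 NRF2 genes under 10 alternatives, 84 kept direction and side of the threshold. Library totals turned the sign of Nfe2l2 (0.048), Keap1 (0.11), Gsr (0.0094) and Txnrd1 (0.022). With 1 library left out, Keap1 ranged from -0.066 to 0.051, the positive value without Id1-/- replicate 2, and Gsta4 from -0.042 to 0.75, the negative value without Id1+/+ replicate 2. With library totals 1 NRF2 gene was called higher and 0 lower, with 20 and 11 pathway genes and 3138 and 598 of all genes. Leaving out 1 library gave 0 to 2 NRF2 genes lower, 7 to 11 pathway genes higher and 10 to 32 lower, and 1555 to 2234 of all genes higher and 621 to 1630 lower. DESeq2 size factors, DESeq2, limma-voom and no filter each called Gclm and Prdx1 lower and 0 NRF2 genes higher. Replicate numbers share only a number (correlation of same-numbered deviations 0.114 over 14137 genes). With the replicate block 1 NRF2 gene was called higher, Nqo1 (adjusted p = 0.0429), with 17 pathway genes higher and 36 lower and 2956 and 2237 of all genes.

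In the joint fit, library totals called 0 NRF2 genes lower, 11 pathway genes higher and 3 lower, and 863 and 279 of all genes, and turned the sign of Nfe2l2 (0.062), Gclc (0.12), Gclm (0.051) and Gpx1 (0.14). DESeq2 called 4 pathway genes higher, and 281 of all genes higher and 494 lower. Leaving out 1 library gave 0 to 1 NRF2 genes lower, 4 to 9 pathway genes higher and 6 to 12 lower, and 366 to 703 of all genes higher and 507 to 1058 lower, with Gpx1 from -0.15 to 0.11 (positive without Id1+/+ replicate 2) and Gsta4 from -0.22 to 0.58 (negative without Id1+/+ replicate 1). In AE9a, 102 genes were past 2-fold lower with library totals and 465 with no minimum CPM. The other deposited columns gave 527 higher and 6422 lower, 1 of them an NRF2 gene, and turned Gpx7 (-0.38) and Gstt1 (-0.17), as follows from a constant added unequally to the genotypes. Beyond that, causes were not tested. AE9a has no replicate, and depth limits Gsta4.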

Other observations

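The phagocyte NADPH oxidase, which makes superoxide, is a macrophage and neutrophil complex. Of the 5 of its genes given here, 4 fell in MLL-AF9 Id1-/- libraries and none rose. Among all genes tested, 10.6% fell and 17.2% rose. Ncf4 fell to 80.3 ± 3.36 CPM in Id1-/-, against 110.2 ± 6.65 CPM in Id1+/+ (log2 fold change -0.46, edgeR adjusted p = 0.000839). Rac2, the small GTPase of the complex, fell to 255 ± 4.2 CPM in Id1-/-, against 349 ± 36.6 CPM in Id1+/+ (log2 fold change -0.45, edgeR adjusted p = 0.000906). The cytosolic subunit Ncf1 fell by 0.32, and the membrane subunit Cyba by 0.24. With library totals neither Ncf1 (-0.20) nor Cyba (-0.13) was called, while Ncf4 and Rac2 still were. The catalytic subunit Cybb did not pass the test, with a log2 fold change of 0.21 (edgeR adjusted p = 0.0708), and passed with library totals (0.32, edgeR adjusted p = 0.011). In AE9a all 5 genes had intervals wholly below 0, as did 31.7% of all genes, with log2 ratios from -0.79 (Cyba) to -0.29 (Rac2). Cyba and Cybb were added to the named genes after their values were seen. The call of Cyba was lost without either Id1-/- library (-0.17 without replicate 1, -0.32 without replicate 2) and without Id1+/+ replicate 1 (-0.23), and that of Ncf1 without Id1-/- replicate 2 (-0.29). The macrophage marker sum was also lower in Id1-/-, at 2.57% and 2.49% of counts against 2.89% and 2.67% in Id1+/+, and of 7 neutrophil markers tested 6 fell and none rose. In AE9a the neutrophil markers went the other way, with 3 of 5 past 2-fold higher and none lower (median log2 ratio 1.64), at 0.00236% of counts in Id1-/- against 0.000987% in Id1+/+. Of all AE9a genes at 1 CPM or more, 11.6% were past 2-fold higher and 1.52% lower. The macrophage marker sum there was 2.98% in Id1-/- against 3.41% in Id1+/+. The part of either in this result was not tested. Of the other marker lists in MLL-AF9, 1 of 3 B lymphocyte markers tested rose, and neither the 1 erythroid nor the 3 endothelial markers tested passed. In AE9a 4 of 5 erythroid markers were past 2-fold higher (median log2 ratio 2.42), at 0.0117% of counts in Id1-/- against 0.00243% in Id1+/+, and 1 of 2 endothelial markers.

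The AE9a columns that were not used held the same offsets for the NRF2 genes. The unused Id1-/- column exceeded the used one by 17 in 9 of the 10 genes, with Srxn1 at 2716, and listed Gsta4 at 0. The unused Id1+/+ column exceeded the used one by 134 in all 10, with Srxn1 at 4157 and Gsta4 at 140.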
